A study of Mus musculus with 2 samples.

Results

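Aqp1, Aqp3 and Aqp7 are the aquaporins of vessels, epidermis and fat, and they make up 3 of the 379 genes of the panel measured here. Their transcripts were taken as every decoded transcript carrying one of the 3 gene names with a quality score of at least 20, and each was placed by its cell outline and by its depth in the skin. Aqp3 had 107636 such transcripts in the SspA+HDM section and 7349 in the mock section. Aqp1 had 22902 and 4127, and Aqp7, the rarest, had 3789 and 1650.

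The sections were dorsal skin of C57BL/6 mice, shaved and depilated, measured with Xenium In Situ, which decodes single transcripts of a gene panel in place in a tissue slice. The SspA+HDM sample had received the agents labelled SspA and HDM on the skin surface, and the mock sample had received PBS there. Both were taken at day 7 and cut at 5 µm from fixed, paraffin-embedded blocks. Each treatment had 1 sample, so differences between sections could not be tested, and the 95% intervals given cover counting error only.

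Aquaporins are channels that let water cross a membrane, and some of them also pass glycerol. AQP3 passes both and is the main aquaporin of the epidermis, where glycerol helps the outer skin hold water. AQP7 is the glycerol channel of fat cells, through which glycerol leaves when stored fat is broken down. AQP1 passes water and sits in the endothelium of many blood vessels and in red blood cells.

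Outlines numbered 46142 in SspA+HDM, at a median of 121 panel transcripts, and 15932 in mock, at a median of 103. Both slides carried 2 strips of tissue (24660 and 21469 cells in SspA+HDM, 8411 and 7502 in mock). Since their origin is not labelled, the strips are taken as parts of a section and not as replicates. The SspA+HDM tissue was thicker, at a median of 359 and 342 µm against 216 and 211 µm in mock. Their epidermal band measured 79.0 and 77.3 µm against 38.0 and 39.0 µm in mock. The band was set to end at the 5th percentile of non-epithelial cells, so it took in some of them and is not epidermis alone. Levels are given as CPM over the panel, the count of a gene divided by all panel transcripts of the same outlines and scaled as counts per 1000000. Such ratios depend on the other panel genes and on the mix of tissue in the section. In such sums, fewer cells of a type and less RNA per cell cannot be told apart.

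Over the whole section Aqp3 was higher in SspA+HDM, Aqp1 was moderately higher and Aqp7 was lower. Aqp3 stood at 12810 and 14295 CPM in the SspA+HDM strips, against 3246 and 2904 CPM in the mock strips. Both SspA+HDM strips lay far above both mock strips, and the ratio of the sections was 4.37 (4.27 to 4.48). Aqp1 was at 3063 and 2611 CPM in SspA+HDM and at 1884 and 1568 CPM in mock, a ratio of 1.65 (1.59 to 1.71). The strips did not overlap for this gene either. Aqp7 was at 517 and 412 CPM in SspA+HDM and at 698 and 681 CPM in mock, a ratio of 0.680 (0.642 to 0.722). Only Aqp3 was past 2-fold, a size reached upwards by 14.7% and downwards by 12.7% of the 346 genes that reached 100 transcripts in either section. Among those genes Aqp3 ranked 19 from the top, Aqp1 ranked 77 and Aqp7 ranked 257. Per mm of strip length, where the thicker SspA+HDM skin held more of most genes, all 3 ratios were above 1, at 13.5 for Aqp3, 5.10 for Aqp1 and 2.11 for Aqp7.

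The 3 genes occupied different depths of the skin. Aqp3 was the shallowest, with a median depth of 57.5 µm in SspA+HDM and 38.9 µm in mock. Aqp7 lay at a median of 273 µm in SspA+HDM and 122 µm in mock, and Aqp1 was spread between them, at 221 µm and 117 µm. As a share of the local tissue depth, where 0 is the surface and 1 the deepest cells, the medians were 0.145 and 0.192 for Aqp3, 0.723 and 0.570 for Aqp7, and 0.587 and 0.558 for Aqp1. The order of Aqp3 above Aqp1 above Aqp7 therefore held in both sections, although Aqp1 and Aqp7 were close together in mock.

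**Figure D1:**
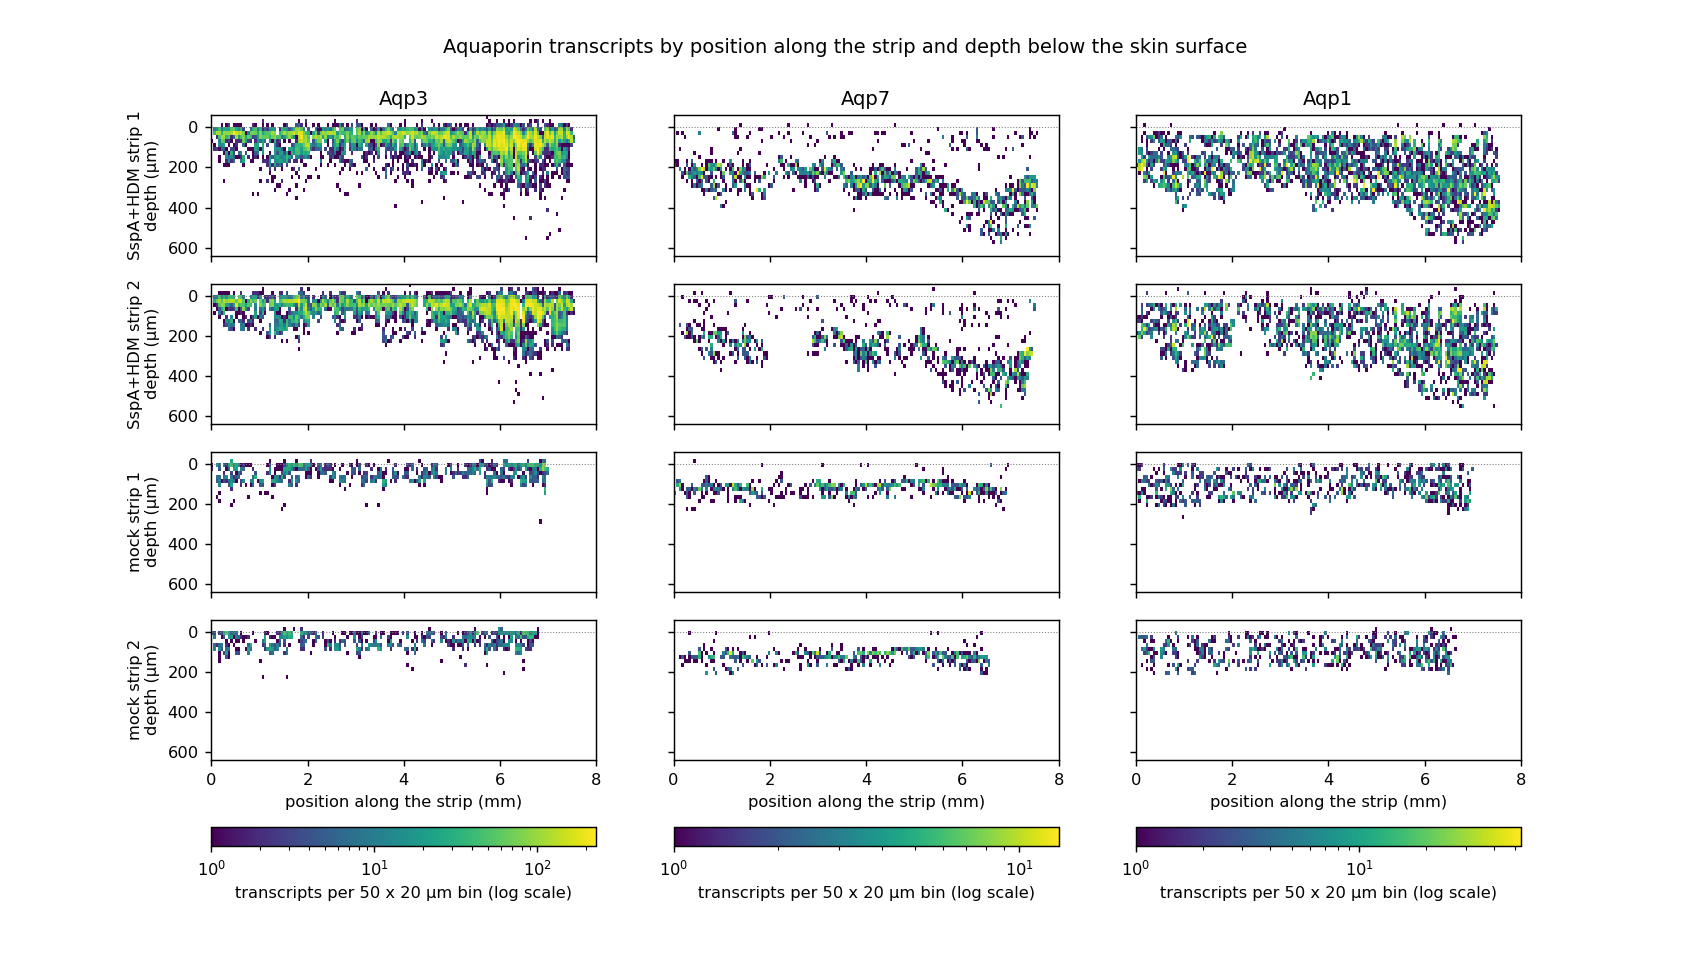
Transcripts of Aqp3, Aqp7 and Aqp1 (columns) in the 2 SspA+HDM strips and the 2 mock strips (rows), as counts per bin of 50 µm along the strip and 20 µm of depth below the surface. Colour is on a log scale shared by the 4 strips of a gene, and white bins hold no transcript. Aqp3 forms an outer band, Aqp7 a band at the depth of fat, and Aqp1 fills the tissue between the epidermis and the deepest layer.

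Divided by zone, 83.8% of Aqp3 transcripts in SspA+HDM and 51.1% in mock lay in the epidermal band. The dermal zone, which also holds the hair follicles, had 15.98% and 48.1% of them, and the deep zone of fat and muscle had 0.181% and 0.823%. For Aqp7 the deep zone held 77.7% in SspA+HDM and 85.3% in mock. Aqp1 was divided between zones, with 47.1% in the dermal and 38.9% in the deep zone of SspA+HDM, against 34.2% and 56.2% in mock. With the tissue depth cut into 10 equal layers, the level of Aqp3 peaked in layer 2 of both sections, at 37386 CPM in SspA+HDM and 8888 CPM in mock. Aqp7 peaked in layer 8 in SspA+HDM (2900 CPM) and layer 6 in mock (3871 CPM), and Aqp1 in layer 7 of SspA+HDM (7484 CPM) and layer 5 of mock (3328 CPM).

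**Figure D2:**
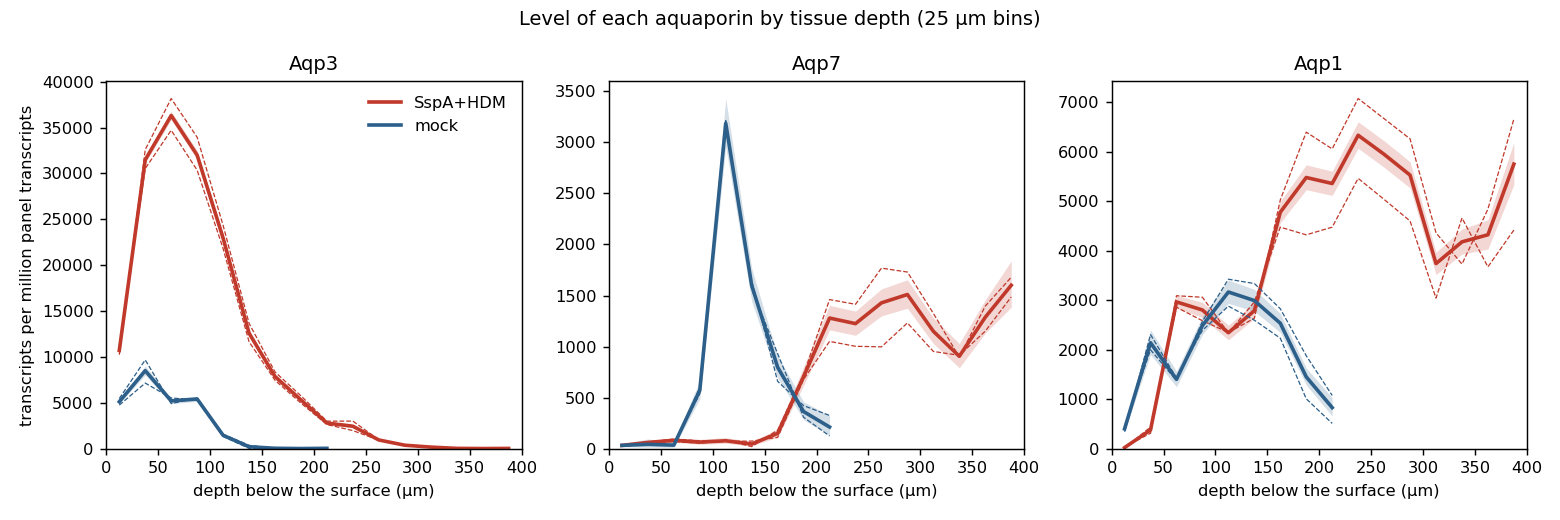
CPM over the panel of each aquaporin against depth below the skin surface, in 25 µm bins. Thick lines are whole sections with their 95% counting intervals, thin dashed lines are the strips, and each curve stops near the depth the tissue reaches. From the surface down the SspA+HDM line of Aqp3 lies above the mock line in every bin drawn for both, while Aqp7 is higher in mock between 100 and 125 µm, where mock fat lies.

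For Aqp3 the sections differed most in the epidermal band, and for Aqp1 they differed least there. In that zone Aqp3 was at 24716 CPM in SspA+HDM and 5358 CPM in mock, a ratio of 4.61 (4.46 to 4.77). In the dermal zone it was at 7114 CPM and 5454 CPM, a ratio of 1.30 (1.26 to 1.35). The ratio of Aqp1 was 1.55 (1.40 to 1.73) in the epidermal band, 2.04 (1.92 to 2.16) in the dermal zone and 2.07 (1.98 to 2.17) in the deep zone. Aqp7 was at 1538 CPM in the deep zone of SspA+HDM and at 1314 CPM in that of mock. Its ratio over that zone was 1.17 (1.10 to 1.25), opposite to the whole section. By the cell classes described below, the deep-zone ratio was 0.907 (0.834 to 0.987) in adipocyte-like cells and 0.922 (0.825 to 1.03) in skeletal-muscle-like cells. It was 2.40 (1.43 to 4.14) in unnamed cells, from 43 and 24 transcripts. The part of the mix of cells in the zone ratio was not tested.

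Within the epidermal band, the level of Aqp3 was lowest at the surface and highest towards the base in both sections. From the surface to the base, the 5 equal parts of the band held 8962, 25295, 36495, 40334 and 33934 CPM in SspA+HDM, against 2664, 5368, 7620, 9752 and 8279 CPM in mock. The fourth part was the highest in each section, and SspA+HDM was higher in all 5, by 3.36 to 4.79 times. The strips gave the same order of sections in every part. Equal parts are not equal cell layers: Col17a1, which encodes a collagen that anchors basal cells, was highest in the fourth part in SspA+HDM and in the third part in mock. The band also took in some non-epithelial cells, and Aqp1 reached 3996 CPM in its lowest part in SspA+HDM and 2536 CPM in mock. Per mm of strip, where band thickness counts too, the ratios ran from 12.9 in the outermost part to 35.6 in the fourth.

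The share of epithelial cells with at least 1 Aqp3 transcript also differed at each level of the band. In SspA+HDM it was 56.1% in the outermost part and 86.5%, 92.6%, 93.1% and 91.2% in the parts below. In mock the shares were 25%, 29.4%, 36.4%, 44.5% and 56.4% in the same order. A positive cell was thus the rule below the outermost part of the SspA+HDM band, while mock cells reached 56.4% only at the base. Cells of the SspA+HDM band were read more deeply, with a median of 405 panel transcripts at the surface and 163.5 at the base, against 216 and 86.5 in mock, and the part of this difference in the shares was not tested. On average a cell of the middle part held 9.54 Aqp3 transcripts in SspA+HDM and 1.25 in mock.

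**Figure D3:**
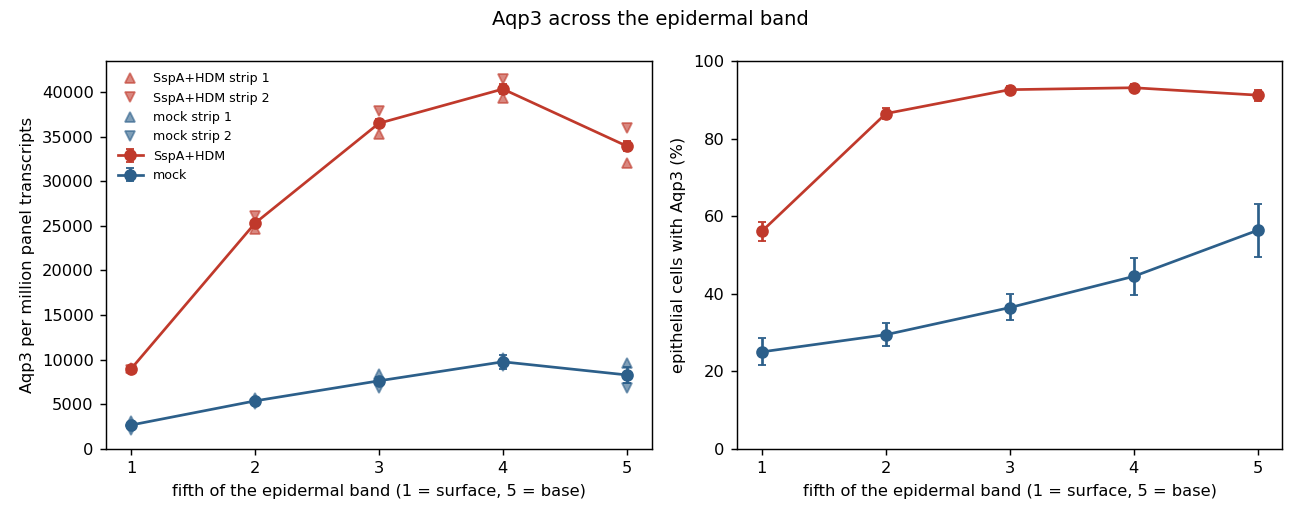
Aqp3 across 5 equal parts of the epidermal band, from surface to base. Left, CPM over the panel for sections (circles, with 95% counting intervals) and strips (triangles); right, percent of epithelial cells with at least 1 Aqp3 transcript, with exact binomial intervals. SspA+HDM lies above mock at every level, and both peak in CPM in the fourth part.

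The cells were also sorted by 2 marker genes in place of position. Col17a1 was at 27345 CPM even in the outermost part of the mock band, against 1773 CPM in SspA+HDM. A cut on Col17a1 therefore need not pick the same cell layers in both sections. Among keratinocyte-like cells of the band with at least 3% of their transcripts from Col17a1 and less than that from Lor, Aqp3 was at 57544 CPM in 3234 SspA+HDM cells and at 9588 CPM in 1531 mock cells. That is a ratio of 6.00 (5.75 to 6.26), and 98.3% of these cells had Aqp3 in SspA+HDM against 39.9% in mock. Lor encodes loricrin, a protein of the cornified envelope made in the granular layer. In cells with at least 3% Lor and less than that of Col17a1, Aqp3 was at 2649 CPM in 1760 SspA+HDM cells and 1891 CPM in 490 mock cells, a ratio of 1.40 (1.20 to 1.64). Cells rich in neither gene differed by 6.47 (5.87 to 7.14), at 30576 CPM in 5366 SspA+HDM cells and 4729 CPM in 474 mock cells. The cells rich in both were 431 in mock and too few to compare in SspA+HDM, where there were 14. The difference in Aqp3 was thus large in Col17a1-rich cells and small in Lor-rich cells, without a test of the difference between them.

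Cells were next grouped by clustering the other 376 genes, leaving out the 3 aquaporins so that their levels did not shape the groups. Of 24 clusters, those named from marker genes gave 8 classes, each called by its name and "-like". Keratinocyte-like cells held 86.0% of Aqp3 transcripts in SspA+HDM and 49.2% in mock, with 91883 and 3527 transcripts. Their Aqp3 level was 23850 and 26264 CPM in the SspA+HDM strips, against 5804 and 4959 CPM in the mock strips. The ratio of the class was 4.62 (4.47 to 4.78), in a class where 16.2% of 204 measured genes were higher by 2-fold or more and 42.6% were lower by as much. The class lay in different clusters in the 2 sections, with clusters 2, 7, 10, 12 and 17 holding most of the 13052 SspA+HDM cells and cluster 6 holding 3203 of the 3650 mock cells.

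Among the keratinocyte-like clusters, Aqp3 spanned a wide range in SspA+HDM. Cluster 2, with Col17a1 among its leading genes and a median depth of 53.5 µm, had 55541 CPM and Aqp3 in 97.6% of its cells. Cluster 7, at 38.5 µm, had 35100 CPM, cluster 17, at 20.5 µm, had 12076 CPM, and cluster 12, at the surface, had 1331 CPM. Among these 4 clusters the level was lower the nearer the cluster lay to the surface, with no overlap of their intervals. Of the keratinocyte-like clusters, 6 and 10 had at least 50 cells in both sections. Cluster 6 had 39178 CPM in 61 SspA+HDM cells and 4472 CPM in 3203 mock cells, a ratio of 8.76 (7.61 to 10.05), with the SspA+HDM cells at a median depth of 56.7 µm and the mock cells at 11.8 µm. Cluster 10, with 1924 SspA+HDM and 376 mock cells, had 16985 CPM against 11494 CPM, a ratio of 1.48 (1.34 to 1.63). Unnamed cluster 5, led by Sostdc1, Vsnl1, Sox9 and Col17a1, also held cells of both sections, and its Aqp3 level was 30204 CPM in SspA+HDM and 20572 CPM in mock, a ratio of 1.47 (1.37 to 1.57). Within clusters the Aqp3 ratio was thus above that of the class in cluster 6 and below it in clusters 5 and 10.

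In hair-follicle-like cells the order of the sections was opposite. Aqp3 was at 4520 and 4769 CPM in the SspA+HDM strips, against 17444 and 16647 CPM in the mock strips, a ratio of 0.272 (0.253 to 0.291). This class too was made of different cells: cluster 11 gave 2232 of the 2698 SspA+HDM cells and cluster 16 gave 1309 of the 1354 mock cells. Cluster 11, with a median depth of 230 µm, had 2279 CPM. Within cluster 16 the levels were 16109 CPM in 466 SspA+HDM cells and 17306 CPM in mock, a ratio of 0.931 (0.857 to 1.01), whose interval spans 1. Unnamed cluster 14, led by Crct1, Ly6g6c and Cd36, had less Aqp3 in SspA+HDM, at 2033 CPM against 4188 CPM, a ratio of 0.485 (0.430 to 0.548). In clusters 14 and 16, unlike the epidermal band, Aqp3 was thus not higher in SspA+HDM, though that contrast was not tested.

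**Figure D4:**
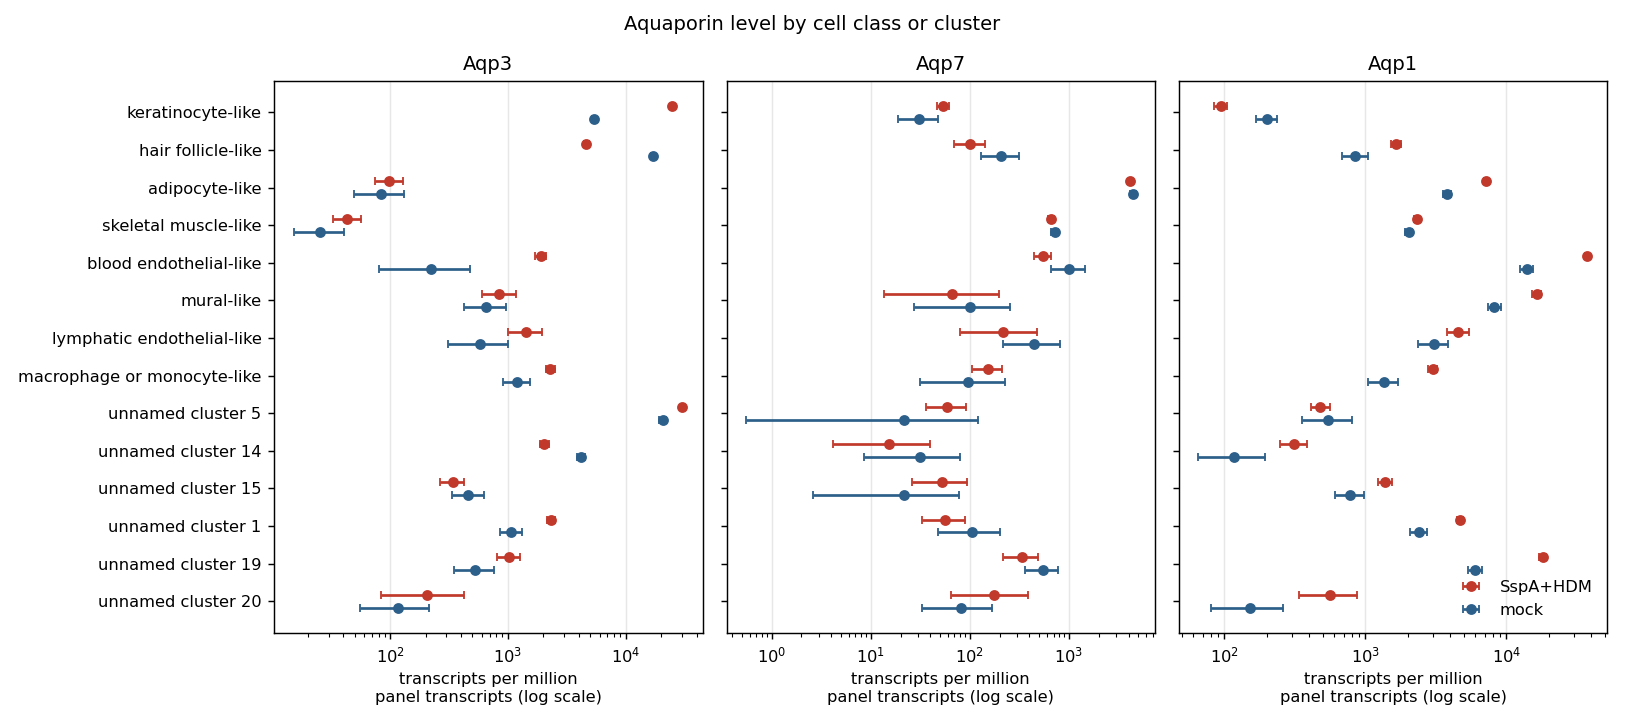
Level of each aquaporin by cell class and by the unnamed clusters with at least 50 cells in both sections, as CPM over the panel on a log axis. Points are sections and bars are 95% counting intervals. Aqp3 is highest in epithelial groups, Aqp7 in adipocyte-like cells and Aqp1 in blood-endothelial-like cells, in both sections.

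Outside epithelium Aqp3 was scarce but not absent from cell outlines. Adipocyte-like cells had 98.6 CPM in SspA+HDM and 83.6 CPM in mock, and skeletal-muscle-like cells 43.2 and 25.6 CPM. Blood-endothelial-like cells had 1897 CPM in SspA+HDM and 221 CPM in mock, from 380 and 6 transcripts, a ratio of 8.60 (3.92 to 23.6). Macrophage-or-monocyte-like cells had 2297 and 1193 CPM. An outline can take in transcripts of a neighbouring cell, and the Aqp3 of the tissue around these cells differed as given above. The part of that in the levels of these classes was not tested.

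Aqp3 was also uneven along the skin. In windows of 500 µm, its level ranged from 6961 to 29228 CPM with a median of 11648 CPM in 30 SspA+HDM windows. In 28 mock windows it ranged from 1076 to 10123 CPM, with a median of 2305 CPM. The windows overlapped, with 20 of the SspA+HDM windows above every mock window. The right part of the SspA+HDM strips held 1.52 and 1.62 times the Aqp3 level of the left part, against 1.23 and 1.05 times in the mock strips. Counted per cell, Aqp3 reached 60 transcripts in a single SspA+HDM outline and 27 in a mock outline. Cells with at least 5 transcripts held 85.6% of all Aqp3 in SspA+HDM and 37.0% in mock.

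Aqp7 was highest in the fat cells, where its level relative to the panel differed little between the treatments. Adipocyte-like cells, named from Car3, Retn, Pck1 and Cd36, held 62.6% of Aqp7 transcripts in SspA+HDM and 59.4% in mock. Aqp7 stood there at 4206 and 4123 CPM in the SspA+HDM strips, against 4234 and 4668 CPM in the mock strips. The strips overlapped, and the ratio of 0.944 (0.875 to 1.02) had an interval that spans 1, in a class where 18.3% of 186 genes were higher by 2-fold or more and 5.38% were lower by as much. The share of these cells with an Aqp7 transcript was 32.8% in SspA+HDM and 34.9% in mock, at median depths of 125 and 117 panel transcripts per cell. Adipocyte-like cells took 7.04% of the panel transcripts of SspA+HDM and 9.26% of those of mock. The lower Aqp7 level of the whole section stood beside that lower share. With each named class given the same weight in both sections, and unnamed cells left out, the Aqp7 ratio was 0.933. Set against the sum of the 4 fat marker genes over all cells, Aqp7 was higher in SspA+HDM, at 1.20 transcripts per 100 marker transcripts against 0.918 in mock. Of those markers, Retn, Car3 and Cd36 had whole-section ratios of 0.479, 0.512 and 0.562, while Pck1 had 1.09 (1.02 to 1.16). The whole-section ratio of Aqp7, 0.680, was above those of Retn, Car3 and Cd36 and below that of Pck1. Car3 alone gave 231652 of the 311253 marker transcripts in SspA+HDM and 132601 of 174682 in mock. The direction of Aqp7 against fat markers therefore depends on the markers chosen.

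Skeletal-muscle-like cells were the second holder of Aqp7, with 22.6% of its transcripts in SspA+HDM and 31.5% in mock. Their level was lower than that of fat, at 659 CPM in SspA+HDM and 717 CPM in mock, a ratio of 0.919 (0.822 to 1.03). In keratinocyte-like cells Aqp7 was near the bottom of its range, at 54.0 CPM from 199 transcripts in SspA+HDM and 30.6 CPM from 20 in mock. Fat cells with Aqp7 were also richer in other fat genes. Retn, the gene of the hormone resistin, was at 34298 CPM in SspA+HDM fat cells with Aqp7 and 21897 CPM in those without, and at 46291 and 34364 CPM in mock. Pck1, whose enzyme feeds the making of glycerol for fat storage, was at 8278 and 5210 CPM in SspA+HDM and at 5071 and 3475 CPM in mock. Those with Aqp7 were read more deeply, at a median of 166 against 107 panel transcripts in SspA+HDM and 163 against 100.5 in mock, and the part of that in these differences was not tested.

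Per 500 µm window, Aqp7 had a median of 468 CPM in SspA+HDM, between 46.9 and 856 CPM. The mock windows had a median of 728 CPM, between 181 and 1094 CPM. The ranges overlapped over most of their length, with 2 SspA+HDM windows below every mock window and 5 mock windows above every SspA+HDM window. Aqp1 windows had a median of 2819 CPM in SspA+HDM, between 694 and 4011 CPM, against 1709 CPM in mock, between 906 and 2863 CPM. They overlapped too, with 13 SspA+HDM windows above every mock window.

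Aqp1 was highest in blood-endothelial-like cells, named from Vwf, Plvap, Kdr, Tie1 and Sox17. It stood there at 38304 and 35330 CPM in the SspA+HDM strips, against 14224 and 13602 CPM in the mock strips. The ratio was 2.65 (2.39 to 2.95), in a class where 17.4% of 161 genes were higher by 2-fold or more and 16.1% were lower by as much. An Aqp1 transcript was found in 65.6% of 2193 SspA+HDM cells and in 31.8% of 396 mock cells, at median depths of 81 and 58 panel transcripts per cell. After thinning each cell to 40 transcripts, with cells that had fewer left out, the shares were 56.4% and 26.5%. The class held 32.7% of all Aqp1 in SspA+HDM and 9.40% in mock, so most Aqp1 transcripts lay in outlines of other classes.

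The Aqp1 difference in these cells varied with depth. In the deep zone the level was 55887 and 51240 CPM in the SspA+HDM strips (357 cells) and 8861 and 9122 CPM in the mock strips (134 cells), a ratio of 6.03 (4.94 to 7.44). In the dermal zone it was 29679 and 29556 CPM in SspA+HDM (1308 cells) and 20251 and 18081 CPM in mock (216 cells), a ratio of 1.54 (1.35 to 1.76). In the epidermal band, 528 SspA+HDM cells had 40599 CPM, and mock had only 46 cells there, at 9447 CPM from 28 transcripts.

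Other genes of the deep blood-endothelial-like cells differed as well, in both directions. Of the 5 markers behind the name, Vwf was at 42107 CPM in the deep SspA+HDM cells and 18928 CPM in the deep mock cells, Plvap at 30326 and 9953 CPM, and Kdr at 3476 and 1600 CPM. Tie1 was at 14991 CPM in SspA+HDM and 12797 CPM in mock, and Sox17 was lower in SspA+HDM, at 2521 CPM against 5332 CPM. Myh11, a smooth muscle gene, was at 31308 CPM in SspA+HDM and 59540 CPM in mock, and the fat and muscle gene Car3 was at 37066 and 60073 CPM. The pericyte gene Rgs5 was at 45264 CPM in SspA+HDM and 34391 CPM in mock, and the fat and endothelial gene Cd36 at 30459 and 25327 CPM. The part of this make-up in the ratio of 6.03 was not tested. Set against the sum of the 5 blood endothelial marker genes over all cells, with no cell naming, Aqp1 in the deep zone was at 65.9 transcripts per 100 marker transcripts in SspA+HDM and 47.8 in mock, a ratio of 1.38. In the dermal zone the values were 58.7 and 45.2 (ratio 1.30), in the epidermal band 43.2 and 80.3 (ratio 0.538), and over the whole tissue 58.3 and 48.7 (ratio 1.20). The marker sum itself was 1.38 times as high in SspA+HDM over the whole tissue, so the sections differed less by this measure than by CPM. In the epidermal band the measure also takes in Aqp1 of other outlines. Of 387 mock Aqp1 transcripts in cells of the band, 129 lay in keratinocyte-like and 28 in blood-endothelial-like cells. In SspA+HDM these were 318 and 2031 of 3169.

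**Figure D5:**
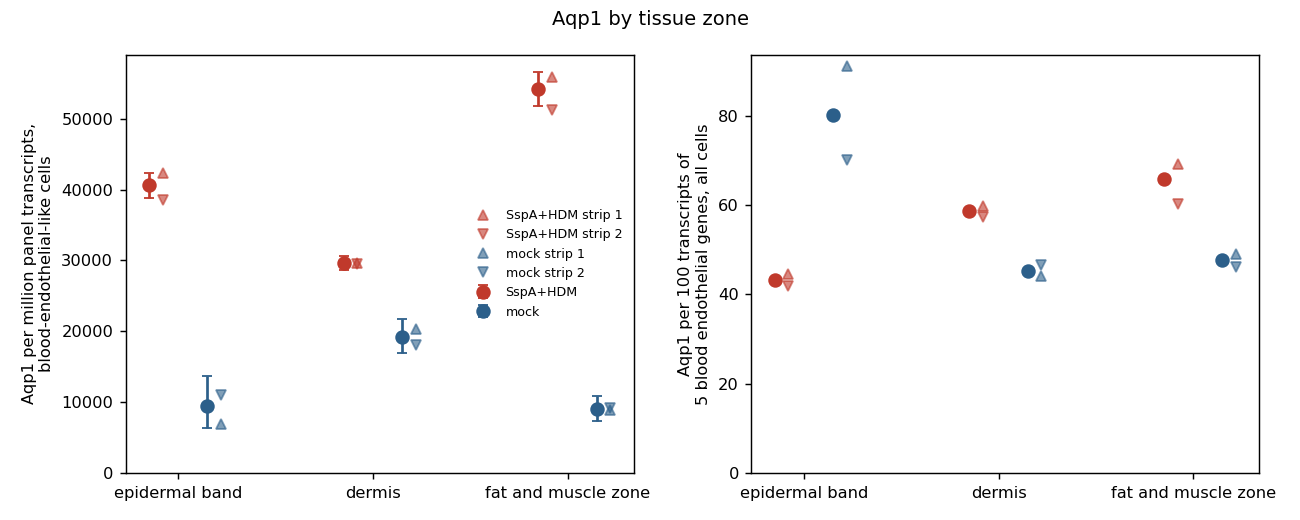
Aqp1 by tissue zone. Left, CPM over the panel in blood-endothelial-like cells with 95% counting intervals; right, Aqp1 transcripts per 100 transcripts of Vwf, Plvap, Kdr, Tie1 and Sox17 over all cells, with circles for sections and triangles for strips. The sections lie far apart in the deep zone on the left and much closer together on the right, where their order turns round in the epidermal band.

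Mural-like cells, led by the smooth muscle genes Myh11, Cnn1 and Tagln, had Aqp1 at 16373 CPM in SspA+HDM and 8204 CPM in mock. The ratio was 1.996 (1.75 to 2.28), and how many of these cells lie in vessel walls was not tested. Unnamed cluster 19, with Kcna1 and Gatm as its first leading genes, had 18074 CPM and 5991 CPM, a ratio of 3.02 (2.67 to 3.42). Unnamed cluster 18, led by Wif1, Acan, Chodl and Sox2, had 16927 CPM in 1473 SspA+HDM cells and too few mock cells (28) to compare. Lymphatic-endothelial-like cells were far below the blood vessels, at 4554 CPM in SspA+HDM and 3042 CPM in mock, a ratio of 1.50 (1.11 to 2.04). Keratinocyte-like cells had the lowest level of the named classes, at 93.9 and 199 CPM, a ratio of 0.472 (0.385 to 0.582). That class lay in different clusters in the 2 sections, as given above.

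Fat and muscle outlines held much of the remaining Aqp1. Adipocyte-like cells had 7203 CPM in SspA+HDM and 3792 CPM in mock, a ratio of 1.90 (1.76 to 2.05), and held 17.7% and 20.3% of the gene. Skeletal-muscle-like cells had 2302 and 2025 CPM, a ratio of 1.14 (1.07 to 1.21), and held 12.9% and 35.4%. In both classes the level depended on how near a blood-endothelial-like cell was. Adipocyte-like cells within 15 µm of such a cell had 15396 CPM and those beyond 30 µm had 5099 CPM in SspA+HDM, against 6735 and 3441 CPM in mock. For skeletal-muscle-like cells the values were 10858 and 2100 CPM in SspA+HDM and 6299 and 1749 CPM in mock. In mural-like cells nearness made little difference, at 15013 near and 18546 CPM far in SspA+HDM and 8253 and 7948 CPM in mock. The part of neighbouring endothelial transcripts in these levels was not tested. The red-cell gene Slc4a1 had 133 transcripts in SspA+HDM and 40 in mock, or 16.8 and 17.2 CPM. A control feature reached up to 127 and 34 transcripts, so these counts were close to the controls and do not measure red cells.

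Over all cells, Aqp3 rarely shared an outline with the other 2, while Aqp7 and Aqp1 often did. Of cells with Aqp3, 1.51% also had Aqp7 in SspA+HDM and 1.37% in mock, against 6.64% and 7.37% of cells without Aqp3. For Aqp1 the shares were 6.27% and 5.72%, against 21.6% and 12.2%. Within keratinocyte-like cells the order was opposite. There Aqp7 was in 1.61% and 1.24% of cells with Aqp3, against 0.794% and 0.238% of those without. Aqp1 was in 2.37% and 3.37%, against 1.62% and 2.34%. In adipocyte-like cells the order differed between the sections. Of cells with Aqp7, 34.9% also had Aqp1 in SspA+HDM and 28.6% in mock, against 15.5% and 9.85% of cells without Aqp7. Over 38 points, 1 for each cluster of at least 100 cells in each section, the correlation of log2 levels was 0.65 between Aqp1 and Aqp7, -0.48 between Aqp1 and Aqp3, and -0.63 between Aqp3 and Aqp7. Points of a section share 1 library, and neighbouring cell types share spilled transcripts, so these values describe the sections only.

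By the same measure the genes most like Aqp3 were Capns2 (0.92), Serpinb5 (0.89), Dsc3 (0.88), Sdc1 (0.86) and Epcam (0.86). Their whole-section ratios were 1.01, 1.11, 0.920, 1.69 and 2.11, all below the 4.37 of Aqp3. Most like Aqp7 were Ppp1r1a (0.90), Pck1 (0.89), Retn (0.88), Hp (0.87) and Timp4 (0.87), with ratios from 0.434 for Ppp1r1a to 1.65 for Hp, the gene of the plasma protein haptoglobin. Most like Aqp1 were Eng (0.91), Plvap (0.90), Clec14a (0.89), Rgs5 (0.88) and Tagln (0.87), with ratios of 1.22, 1.46, 1.74, 1.56 and 0.628. For Aqp1, with a ratio of 1.65, all but Tagln were thus higher in SspA+HDM too, while none of the 5 genes like Aqp3 reached its ratio.

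Beside the members, gene lists of their pathways were counted over the whole section, where the 346 genes had a median log2 ratio of 0.05. A 2-fold size was reached upwards by 14.7% of the 346 and downwards by 12.7%. Whether any list departed from these shares was not tested. Few listed genes were on the panel, such as 4 of 24 for glycerol and lipid handling. Of those 4 genes, 0 were at least 2-fold higher and 1, Retn (ratio 0.479), was at least 2-fold lower, with a median log2 ratio of -0.90. Pck1 was at 602 CPM in SspA+HDM and 554 CPM in mock. Of 11 epidermal differentiation and barrier genes, 2 were at least 2-fold higher and 1 lower, with a median of 0.36. The 2 were Krt16 (ratio 20.7), a keratin of activated keratinocytes, and Cnfn (10.97), and the lower one was the late envelope gene Lce1m (0.141). Of 5 blood endothelial genes, Vwf was 2.04-fold higher, 0 were 2-fold lower, and the median was 0.47. Of 6 epithelial water and ion transport genes, 4 were at least 2-fold higher and 2 lower, with a median of 2.90. They ranged from the phosphate carrier gene Slc34a2 (11.2) and the glucose carrier gene Slc5a1 (10.8) down to the potassium channel gene Kcnj16 (0.130) and Gabrp (0.121).

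The panel held 2 further aquaporins. Aqp4, the water channel of fast muscle fibres and of astrocytes, was at 234 CPM in SspA+HDM and 513 CPM in mock over the section. That is a ratio of 0.456 (0.424 to 0.491), with 94.1% and 97.1% of it in the deep zone. Within skeletal-muscle-like cells, which held 1694 and 1113 of its transcripts, the Aqp4 ratio was 0.841 (0.779 to 0.908). Aqp5, known from sweat and other secreting glands, was rare, with 515 and 169 transcripts and a ratio of 0.894 (0.750 to 1.07). Its place differed more than its level: 62.3% of it lay in the epidermal band in SspA+HDM and 5.33% in mock, while the dermal zone held 36.1% and 92.3%. In SspA+HDM, 281 of the 515 transcripts lay in cluster 12, the keratinocyte-like cluster at the surface. In mock, 79 of the 169 lay in cluster 14 and 55 in the hair-follicle-like cluster 16. At most 127 transcripts of a control feature were decoded in SspA+HDM and at most 34 in mock, so Aqp5 was above the controls in both.

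The quality and place of the transcripts set limits on these levels. Quality 20 was reached by 73.0% of Aqp3 transcripts in SspA+HDM and 73.3% in mock, and by 76.2% and 75.3% for Aqp7. For Aqp1 it was reached by 86.8% in SspA+HDM and only 77.8% in mock, and with no quality filter its section ratio was 1.46. Transcripts over a nucleus were 47.0% of Aqp3 in SspA+HDM and 53.9% in mock, 38.0% and 35.8% of Aqp7, and 39.0% and 40.4% of Aqp1. Counting those alone, the section ratios were 3.12 for Aqp3, 0.591 for Aqp7 and 1.30 for Aqp1, and the Aqp3 ratio of keratinocyte-like cells was 4.51.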

How the data were processed

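The deposited files hold, per the file headers, one row per decoded transcript with its gene, position, cell, nucleus overlap and quality score, plus the polygon of every cell. Quality ran from 5.28 to 40 in SspA+HDM and from 5.32 to 40 in mock as deposited, so the authors had not cut it at 20. The decoding and segmentation software is not given in the sources used here. Positions were taken as µm.

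Transcripts of score 20 or above were counted per outline, giving 8124205 gene transcripts in SspA+HDM and 2461475 in mock, with 97.6% and 94.5% inside outlines. Intervals are exact Poisson for counts, exact conditional binomial for ratios and Clopper-Pearson for shares, all at 95%. The ratio and its interval were tested on counts simulated at the whole-section levels. Cells with at least 20 transcripts (44282 and 15306) were clustered together without the 3 members: log1p of scaled counts, 30 principal components, 15 neighbours, Leiden at resolution 1 (leidenalg 0.10.2). A cluster of at least 100 cells was named where 3 markers were detected (CPM plus 50 at least 2 times the cluster median), more of its 10 leading genes were markers of that class than of any other, and 1 marker was among its first 3. No doublet caller was run. Alternatives were other quality cuts, transcripts over nuclei only, other scalings, other clusterings and leaving out each strip. Cells linked within 100 µm formed strips. The surface was the 2nd percentile of cells in 50-µm bins, the epidermal band ended at the 5th percentile of non-epithelial cells, and the deep zone began at the 10th percentile of adipocyte-like and muscle-like cells.

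Named genes are the 3 members, the 5 genes most correlated with each in log2(CPM + 10), and members of the fixed lists that reached 100 transcripts in either section. The members and lists were chosen with earlier results of these data known. The naming rule, strips, zones, parts of the band, marker splits, windows, distances and Aqp1 per marker were set after the files had been seen. Aqp3 and Aqp7 lie on chromosome 4 and Aqp1 on chromosome 6 in RefSeq (GRCm38.p6).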

Additional observations from a re-analysis of the deposited data

Results flagged for a closer look

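The ratio of Aqp3 between treatments went opposite ways in different cell classes. It was 4.62 in keratinocyte-like and 8.60 in blood-endothelial-like cells, but 0.272 in hair-follicle-like cells, with both SspA+HDM strips on the same side of both mock strips in each class. The difference between the classes was not tested. The value of 8.60 rests on 6 mock transcripts, and within cluster 16, which holds most mock hair-follicle-like cells, the Aqp3 ratio was 0.931.

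Aqp1 likewise had ratios of 2.65 in blood-endothelial-like and 2.22 in macrophage-or-monocyte-like cells against 0.472 in keratinocyte-like cells. That difference was not tested either. The keratinocyte-like class lay in different clusters in the 2 sections. Within cluster 6 the Aqp1 ratio was 4.13 (1.32 to 9.88), from 5 SspA+HDM and 128 mock transcripts. Within cluster 10 it was 1.57 (0.398 to 13.6), from 29 and 2. Macrophage-or-monocyte-like cells within 15 µm of a blood-endothelial-like cell had 5200 CPM of Aqp1 in SspA+HDM and 3616 CPM in mock, against 1663 and 952 CPM beyond 30 µm.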

How the results depend on the processing

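With 1 sample per treatment no setting has a test. The Aqp3 section ratio of 4.37 was 3.91 at quality 30, 3.12 over nuclei, 5.15 per segmented cell and 13.5 per mm of strip. It was 4.18 without the 5 most abundant genes and 3.44 with each named class given the same weight in both sections. That weight was the mean over the 2 sections of the class's share of named-class transcripts, so classes were not weighted equally and unnamed cells were left out. Without each strip in turn the Aqp3 ratio was 4.15 to 4.64. Aqp7 (0.680) was 0.777 at quality 30, 0.591 over nuclei, 0.801 per cell and 2.11 per mm. It was 0.933 with the same class weights in both sections and 0.597 to 0.749 without each strip. Aqp1 (1.65) was 1.46 with no quality filter, 1.30 over nuclei, 1.94 per cell, 5.10 per mm, 1.58 without the 5 most abundant genes and 1.51 to 1.82 without each strip. In keratinocyte-like cells Aqp3 (4.62) was 4.08 at quality 30, 3.93 at resolution 0.5, 4.94 at resolution 2, 4.985 with at least 40 transcripts per cell, 3.84 with sections clustered separately and 4.30 to 5.03 without each strip. In adipocyte-like cells Aqp7 (0.944) was 1.09 at quality 30, 0.846 over nuclei and 0.740 clustered separately, so its direction depends on these choices; without each strip it was 0.894 to 0.986. In blood-endothelial-like cells Aqp1 (2.65) was 2.04 over nuclei and 2.54 to 2.75 without each strip, and clustering the sections separately gave no mock cluster of that name and so no value. The cause of these shifts was not tested. Of values added after seeing the data, the deep blood-endothelial-like ratio of Aqp1 ran from 5.39 to 6.23, the dermal from 1.18 to 1.64, the hair-follicle-like ratio of Aqp3 from 0.238 to 0.279 and that of cluster 16 from 0.837 to 0.959. No paired analysis was possible because each treatment has 1 sample. The mock section held fewer cells and transcripts, so intervals are wide where a class has few of either, and outlines can take in transcripts of neighbours.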
